A study of Rattus norvegicus with 16 samples.

Results

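The integrated stress response and the amino acid supply genes that it controls were followed here as a set of 39 rat genes, named by symbol and grouped by role: 14 regulators, 10 enzymes of amino acid and one-carbon synthesis, 7 amino acid transporters and 8 aminoacyl-tRNA synthetases. Of these, 38 had at least 1 probe on the array, out of 15715 gene symbols with a probe, and 47 probes represented them. No probe matched Slc7a1, a cationic amino acid carrier. The probe of Stc2, a secreted stress-induced glycoprotein, was well above background on 8 of 16 arrays and on every array of no group, so it was not tested. The remaining 37 genes were tested, and 36 of them were well above background on all 16 arrays. Nupr1 was so on 15.

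RNA came from primary neuron cultures of the hippocampus of Sprague-Dawley rats at embryonic day 18, the extraction text of the labels naming tissue instead. All cultures were plated in serum medium, kept in supplemented Neurobasal medium for 6 to 9 days, and moved before treatment to a supplement free of antioxidants. They then stayed untreated or received 5 µM hydroxyurea, collected after 2, 6, 12 or 24 h. Each of the 5 groups had 3 samples, 15 in all, numbered 1 to 3 in their titles. Neither what a number stands for nor how long the untreated cultures stayed in the second medium is stated, and nothing says that replicates were separate cultures. The p-values here thus rest on how these samples differ from each other, and that spread may be technical. Signals were read on 1-colour Agilent arrays, 16 in number; untreated replicate 1 had 1 array on each slide, and the mean of both was used.

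In the integrated stress response, kinases that sense amino acid shortage, misfolded protein, haem deficiency or double-stranded RNA phosphorylate the translation factor eIF2. General protein synthesis then slows while the transcription factor ATF4 is translated more, and ATF4 with C/EBP partners turns on genes for amino acid synthesis, uptake and tRNA charging. In neurons the pathway is known for its part in stress survival, memory and axon injury. Hydroxyurea inhibits ribonucleotide reductase, the enzyme that makes deoxynucleotides.

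Levels below are normalised log2 signals: log2 of the background-subtracted signal minus the 75th percentile of its array. They compare samples for 1 probe and do not rank genes. Arrays carried 64.7% to 70.4% of probes well above background and no saturated spot. Between spots of 1 probe the median coefficient of variation was 3.35% to 6.88% on 14 arrays, but 21.5% for 12 h replicate 3 and 10.8% for untreated replicate 1, first array. In the deposited score table, the column of 24 h replicate 1 followed the scanner file of 24 h replicate 3 and the reverse (correlation 0.999996, against 0.991 with their own files). Results of the members by replicate number are therefore also given with these 2 samples exchanged and without the 24 h samples. All 7 neuronal markers with a probe were well above background on every array, and no probe matched Rbfox3. So were 8 of 8 astrocyte, 7 of 7 oligodendrocyte-lineage, 4 of 6 microglia, 5 of 7 fibroblast and pericyte and 3 of 5 endothelial markers, so detection alone does not tell neurons from these cells.

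The C/EBP-ATF response element is the DNA site through which ATF4 dimers act, and its core was looked for in the members' promoters. The motif searched was TGATGNAA on both strands, in windows of 300 bases (250 before and 50 after the gene start) from RefSeq on GRCr8. Windows were found for 34 members, and 9 of them (26.5%) held a match, against 1048 of 27457 symbols (3.82%) in the same table. The members were Trib3, Chac1, Nupr1, Pycr1, Slc7a1, Aars1, Cars1, Mars1 and Nars1, and Aars1 had 2 matches. A match describes letters and is no evidence of binding. The 5 stretches below show the match in 3 regulators, a proline synthesis enzyme and a tRNA synthetase, each 5′ to 3′ on the gene's own strand, with the match in capitals and up to 30 bases on either side. They are Nupr1 (chr1:190645919-190645986, minus strand), Chac1 (chr3:126795934-126796001, plus strand), Trib3 (chr3:161275534-161275584, minus strand), Pycr1 (chr10:106420906-106420973, minus strand) and Aars1 (chr19:55908340-55908407, plus strand).
Nupr1: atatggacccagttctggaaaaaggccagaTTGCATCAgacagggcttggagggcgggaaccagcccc
Chac1: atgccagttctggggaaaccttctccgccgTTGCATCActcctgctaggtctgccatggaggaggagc
Trib3: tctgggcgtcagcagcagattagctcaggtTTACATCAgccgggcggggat
Pycr1: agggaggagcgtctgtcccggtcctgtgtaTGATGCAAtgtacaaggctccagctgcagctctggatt
Aars1: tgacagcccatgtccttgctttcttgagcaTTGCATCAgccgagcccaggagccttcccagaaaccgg
Pycr1 carries the motif as searched, and the other 4 carry its reverse complement.

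The first question was whether hydroxyurea moved the response. No member passed the test at any single time, in the average of all 4 times or in the F test over the 5 groups (limma, Benjamini-Hochberg adjusted p above 0.05), and neither did any of the 18123 features (0% in each comparison). At an unadjusted p under 0.05 there were 1, 0, 1 and 1 of 37 members at the 4 times, against 1.19%, 0.739%, 2.32% and 0.866% of all features, 1 in the mean of the times (1.68% of all features) and 0 in the F test (0.872%). The median log2 difference of the members was 0.0069, -0.00075, -5.5e-05 and 0.028 at 2, 6, 12 and 24 h. Averaged over the 4 times it was 0.022, against 0.0020 over all features. Its sign was not stable: it was -0.051 without untreated replicate 2, -0.014 without 12 h replicate 3, 0.077 without untreated replicate 3 and -0.0082 with the slide as a block and the first array of untreated replicate 1. By role, the median in the mean of the times was 0.067 for regulators, -0.018 for synthesis enzymes, 0.047 for transporters and 0.0035 for tRNA synthetases.

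Atf4 and Ddit3, both much used as readouts of the response, differed from untreated by no more than about their standard error at every single time (Atf4 by at most 0.18, SE 0.15, and Ddit3 by -0.15 to 0.039, SE 0.17). Atf4 (NM_024403), the central transcription factor, is controlled mainly through its translation. Its level was 4.39, 4.25 and 4.21 in untreated samples, 4.40, 4.37 and 4.31 at 2 h, 4.31, 4.31 and 4.57 at 6 h, 4.40, 4.30 and 4.71 at 12 h, and 4.43, 3.96 and 4.50 at 24 h (replicates 1, 2 and 3). The groups overlapped, and the difference was 0.10 (SE 0.12) in the mean of the times. Ddit3 (NM_001109986), the pro-apoptotic factor CHOP, was at 1.18, 1.13 and 1.42 in untreated samples and between 0.87 and 1.57 in treated ones, with a difference of -0.017 (SE 0.13). Its untreated values lay inside the treated range.

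Asns (NM_013079), asparagine synthetase and a classic ATF4 target, read 1.50, 1.27 and 1.98 untreated, 1.38, 1.24 and 1.87 at 2 h, 1.60, 1.23 and 1.70 at 6 h, 1.36, 1.26 and 1.95 at 12 h, and 1.86, 1.38 and 1.47 at 24 h, and the difference was -0.060 (SE 0.19). Trib3 (NM_144755), a pseudokinase that restrains ATF4 and CHOP, read -3.10, -2.77 and -2.15 untreated, -3.08, -2.63 and -2.27 at 2 h, -2.69, -3.08 and -2.52 at 6 h, -3.07, -2.95 and -2.73 at 12 h, and -2.54, -2.61 and -2.85 at 24 h, a difference of -0.077 (SE 0.19). In both genes the 3 untreated samples spanned nearly the whole range of the treated ones.

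Phgdh (NM_031620), the first enzyme of serine synthesis, had the smallest p of all members over time. It was at 5.07, 6.05 and 6.11 in untreated samples, 6.10, 6.19 and 6.34 at 2 h, 6.21, 6.06 and 6.23 at 6 h, 6.29, 6.19 and 6.14 at 12 h, and 6.10, 6.22 and 6.28 at 24 h, and at 12 h the 3 values lay above all 3 untreated ones. It was the only member separated at 12 h, where 5.07% of all features were, and no member was separated at 2, 6 or 24 h (6.35%, 3.83% and 2.94% of all features). The log2 differences were 0.47, 0.42, 0.46 and 0.46 at 2, 6, 12 and 24 h (SE 0.21 each) and 0.45 (SE 0.16) in the mean (limma, adjusted p = 1.00). The low untreated value rested on 1 array: the first array of untreated replicate 1 read 4.03 and its repeat 6.12. With the repeat alone the mean difference was 0.10, and without untreated replicate 1 it was 0.12.

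The same array was low for other members. Wars1 (NM_001013170), which charges tryptophan, read 1.44 on the first array and 3.25 on the repeat, and its treated samples lay between 3.24 and 3.53 beside 2.34, 3.42 and 3.57 untreated. Its mean difference of 0.25 (SE 0.18) became -0.047 with the repeat alone. Slc7a5, the large neutral amino acid carrier, read -1.42 and -0.33 on the 2 arrays, its untreated samples were at -0.87, -0.087 and 0.15 and its treated ones between -0.48 and 0.25, and its mean difference went from 0.16 to -0.022. The second probe of Ddit4, an mTORC1 inhibitor, read -4.61 on the first array, where it was not well above background, and -0.96 on the repeat. That probe gave 0.79 in the mean of the times and the brighter probe 0.096. Over all features the 2 arrays differed by a median of 0.11, with a 95th percentile of 0.82, so these 4 probes lay beyond that percentile. Nupr1 did as well, at -5.60 on the first array and -4.43 on the repeat.

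The other members named by the F test over groups did not separate. Chac1 (NM_001173437), which degrades glutathione, read -1.53, -1.56 and -1.08 untreated and between -1.56 and -0.82 treated, highest in 12 h replicate 3. Shmt2, the mitochondrial serine hydroxymethyltransferase, was at 1.13, 0.69 and 1.32 untreated and at 0.91, 0.73 and 0.74 at 12 h, a difference of -0.26 (SE 0.18), and its other treated samples lay between 0.65 and 1.31. Ppp1r15a, the stress-induced eIF2 phosphatase subunit GADD34, was at 0.38, 0.60 and 0.82 untreated and between 0.27 and 1.10 treated, highest in 24 h replicate 2. Ddit4 read 3.55, 3.06 and 3.16 untreated and between 3.12 and 3.45 treated. Psat1, the second enzyme of serine synthesis, had a mean difference of 0.17 (SE 0.16), with 4.05, 3.59 and 3.78 untreated and 3.54 to 4.42 treated.

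The second comparison set the replicate numbers against each other, with group as a term. What a number marks is not stated. If it marks a single culture or preparation, the p-values and standard errors below measure spread within preparations, not between them. Samples numbered 3 were higher than samples numbered 2 in 33 of 37 members, with a median log2 difference of 0.25 against 0.013 over all features. Over all features 53.3% were higher. In that comparison 6 members passed (limma, adjusted p under 0.05), all of them higher, while 197 of 18123 features passed (1.09%), 36 of them higher (0.199%) and 161 lower (0.888%). At an unadjusted p under 0.05 there were 19 of 37 members, all higher, and 11.5% of all features, 5.72% as higher. The members that passed were Atf5, Slc7a3, Ddit3, Nupr1, Mthfd2 and Eif4ebp1. Slide moved with the number, since slide 2 held 4 of the 5 samples numbered 3 and 2 of the 5 numbered 2. With the slide as a block, in a fit with the first array of untreated replicate 1 and one with its repeat, Atf5 passed in both, Nupr1 in the second and the other 4 in neither.

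**Figure D1:**
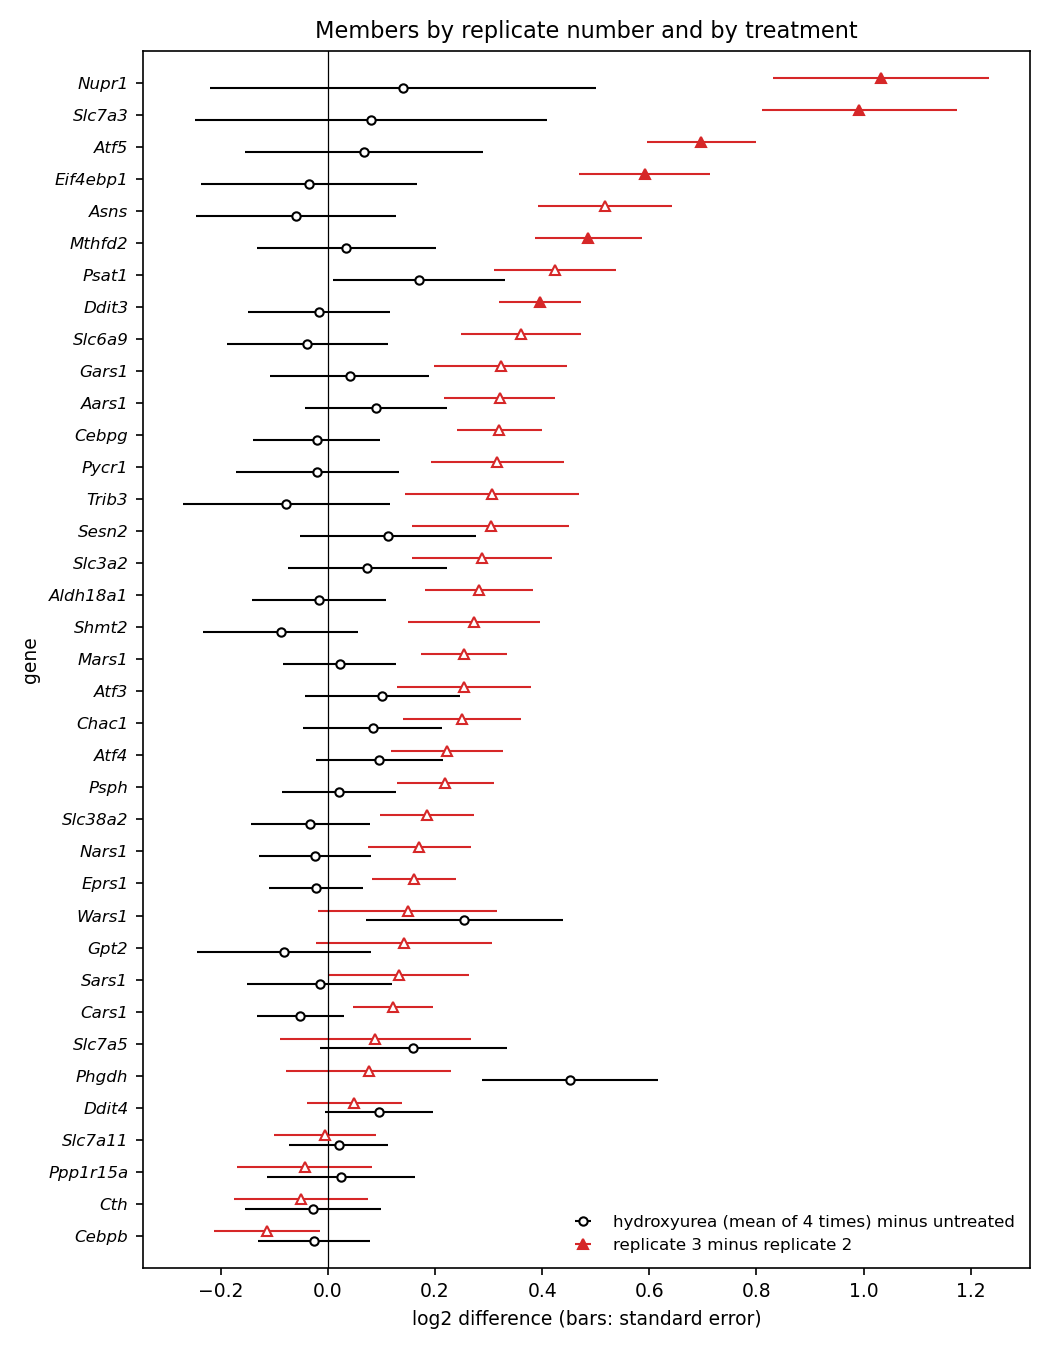
Log2 differences of the 37 members tested, with standard errors, for replicate 3 minus replicate 2 (triangles, filled where the adjusted p was under 0.05) and for the mean of the 4 hydroxyurea times minus untreated (circles). The 6 filled triangles are Nupr1, Slc7a3, Atf5, Eif4ebp1, Mthfd2 and Ddit3, and no circle passed.

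Among the 13 regulators tested the median difference of number 3 over number 2 was 0.30, and 4 passed. Atf5 (NM_172336), a close relative of ATF4 that is also controlled through upstream reading frames, changed with the smallest p. Its level was 1.58, 1.67, 1.44, 1.51 and 1.79 in samples numbered 2 (untreated, 2, 6, 12 and 24 h) and 2.29, 2.47, 2.38, 2.21 and 2.13 in those numbered 3. The 5 values of number 3 all lay above those of number 2, with a difference of 0.70 (SE 0.10, 1.62-fold, adjusted p = 0.0067, and 0.013 and 0.014 with the slide as a block). Samples numbered 1 were at 1.97, 2.05, 2.17, 1.94 and 2.39, all above number 2, and those of 6 h and 24 h were above the lowest of number 3.

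Nupr1 (NM_053611), a stress-induced chromatin protein, gave the largest difference. It was at -4.79, -4.92, -4.70, -4.88 and -4.77 in number 2 and at -3.74, -3.66, -3.98, -3.43 and -4.09 in number 3, a difference of 1.03 (SE 0.20, 2.05-fold, adjusted p = 0.035, and 0.20 and 0.049 with the slide as a block). Number 1 read -5.02, -4.62, -4.81, -4.85 and -3.81, beside number 2 at every time but 24 h, the first of these being the mean of the 2 arrays that differed. Ddit3 was at 1.13, 1.06, 0.87, 1.03 and 1.10 in number 2 and at 1.42, 1.52, 1.27, 1.57 and 1.39 in number 3, a difference of 0.40 (SE 0.076, 1.32-fold, adjusted p = 0.032, and 0.090 and 0.083 with the slide as a block). Its values in number 1 were 1.18, 1.17, 1.15, 1.23 and 1.36, all above the highest of number 2.

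Eif4ebp1 (NM_053857), the repressor of cap-dependent translation 4E-BP1, read 3.24, 3.18, 3.06, 3.22 and 3.44 in number 2 and 3.97, 3.97, 3.76, 3.90 and 3.51 in number 3. Number 1 was at 3.46, 3.38, 3.56, 3.46 and 3.82, and the sets of numbers 2 and 3 did not overlap. The difference was 0.59 (SE 0.12, 1.51-fold, adjusted p = 0.046, and 0.062 and 0.085 with the slide as a block). The other regulators did not pass. Cebpg, an ATF4 partner, differed by 0.32 (SE 0.080, adjusted p = 0.094), with no overlap. Trib3 and Sesn2, a leucine sensor, differed by 0.31 (SE 0.16) and 0.30 (SE 0.15), and Atf3, Chac1 and Atf4 by 0.25, 0.25 and 0.22. Ddit4, Ppp1r15a and Cebpb gave 0.049, -0.043 and -0.11.

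**Figure D2:**
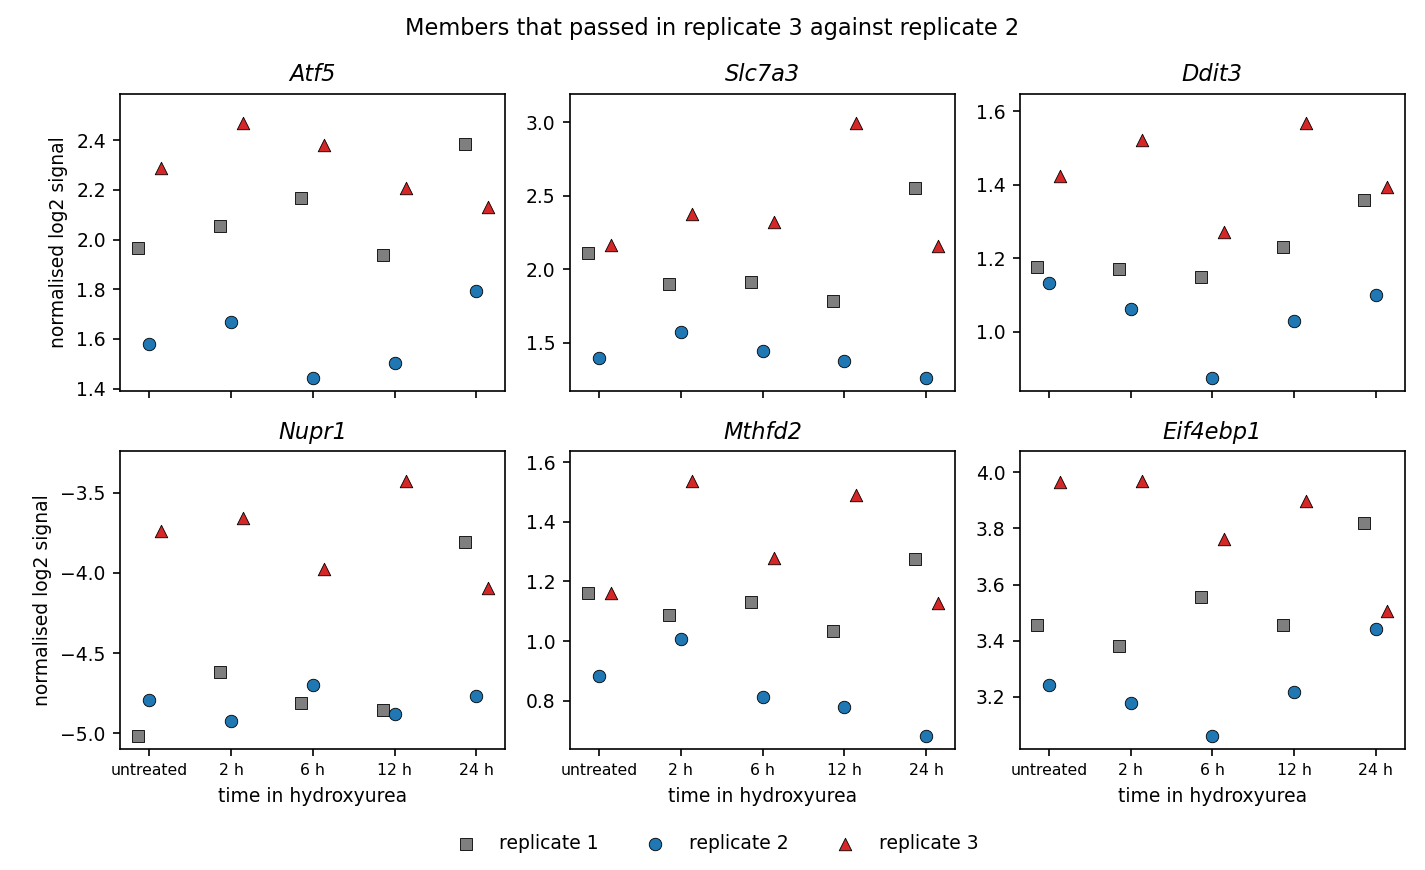
Normalised log2 signal of the 6 members that passed in replicate 3 minus replicate 2, in each of the 15 samples by time (horizontal axis) and replicate number (symbols). The triangles of replicate 3 lie above the circles of replicate 2 at every time, and at 24 h replicate 1 lies above replicate 3 in each panel but that of Ddit3.

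Of the 10 synthesis enzymes 1 passed, 7 had an unadjusted p under 0.05, and their median difference was 0.28. Mthfd2 (NM_001109398), the mitochondrial one-carbon enzyme, was at 0.88, 1.01, 0.81, 0.78 and 0.68 in number 2 and at 1.16, 1.54, 1.28, 1.49 and 1.13 in number 3. Number 1 was at 1.16, 1.09, 1.13, 1.03 and 1.27. The difference was 0.49 (SE 0.10, 1.40-fold, adjusted p = 0.045, and 0.13 and 0.11 with the slide as a block), and its other 2 probes gave 0.45 and 0.53. Asns read 1.27, 1.24, 1.23, 1.26 and 1.38 in number 2 and 1.98, 1.87, 1.70, 1.95 and 1.47 in number 3, again without overlap, with a difference of 0.52 (SE 0.13, adjusted p = 0.086). Psat1 differed by 0.42 (SE 0.11, adjusted p = 0.12). Pycr1 and Aldh18a1, enzymes of proline synthesis, gave 0.32 and 0.28, Shmt2 0.27 and Psph, the last step to serine, 0.22. Gpt2, an alanine transaminase, gave 0.14, Phgdh 0.077 and Cth, which makes cysteine, -0.050.

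Of the 6 transporters tested 1 passed, and the median difference was 0.24. Slc7a3 (NM_017217), the cationic amino acid carrier of neurons, was at 1.40, 1.58, 1.45, 1.37 and 1.26 in number 2. In number 1 it was at 2.11, 1.90, 1.91, 1.79 and 2.55. In number 3 it was at 2.16, 2.38, 2.32, 3.00 and 2.16, all above number 2, and the difference was 0.99 (SE 0.18, 1.99-fold, adjusted p = 0.024, and 0.093 and 0.064 with the slide as a block). Without 12 h replicate 3, its highest sample and the array with the widest spread between spots, the difference was 0.81. Slc6a9, a glycine carrier, differed by 0.36 (SE 0.11) and its dimmer probe by 0.54. Slc3a2, the shared heavy chain of several carriers, gave 0.29, and Slc38a2, the starvation-induced neutral carrier, 0.18. Slc7a5 gave 0.089. Slc7a11, the cystine-glutamate exchanger, gave -0.0052 by the brighter probe and 0.48 by the dimmer one, so its probes disagreed.

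None of the 8 tRNA synthetases passed, but all 8 were higher in number 3 than in number 2, by a median of 0.17. The values were 0.32 for Gars1 and Aars1, 0.25 for Mars1, 0.17 for Nars1, 0.16 for Eprs1, 0.15 for Wars1, 0.13 for Sars1 and 0.12 for Cars1. Mars1, which charges methionine, read 1.87, 1.91, 1.83, 2.05 and 2.17 in number 2 and 2.23, 2.27, 2.20, 2.17 and 2.23 in number 3, the sets meeting at 2.17. Dimmer probes gave 0.041 for Gars1, -0.031 for Nars1 and -0.28 for Wars1, away from the brighter ones. The value of Wars1 rested on 12 h replicate 3, at -3.39 by that probe, and was -0.010 over the other 4 groups. The 12 other synthetases listed had a median of 0.058 with none passing. Among them Farsa, of the phenylalanine enzyme, gave 0.30, and Tars1, for threonine, gave 0.61 (SE 0.24) in the mean of the times, with an adjusted p of 1.00 (limma). The 2 arrays of untreated replicate 1 put Tars1 at -0.50 (first) and 2.94 (repeat), and with the repeat alone the difference was 0.036.

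**Figure D3:**
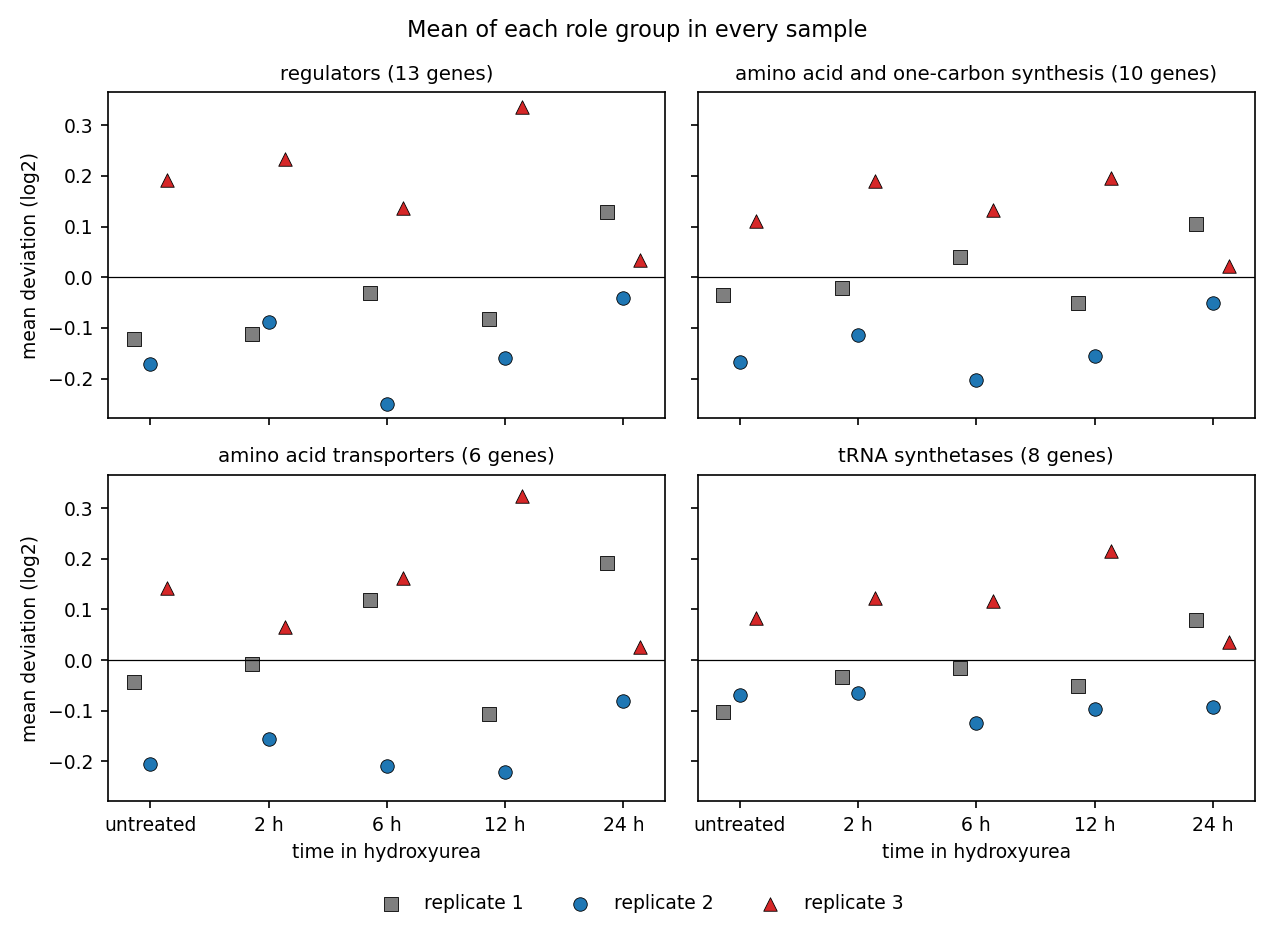
Mean over the genes of a role of each sample's value minus the gene's mean over the 15 samples, in log2 units, by time and replicate number. In every panel replicate 3 lies above 0 and replicate 2 below 0 at each time, and at 24 h replicate 1 lies above replicate 3.

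Averaged over the 37 members, the deviation from each gene's mean was -0.20 to -0.062 in the 5 samples numbered 2 and 0.030 to 0.27 in the 5 numbered 3. In samples numbered 1 it was -0.081, -0.054, 0.016 and -0.071 in untreated, 2, 6 and 12 h, and 0.12 at 24 h. The lowest of number 3 was 24 h replicate 3, at 0.030. These are descriptions of a set chosen with results of these arrays known and have no p.

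Against number 1, no member passed with the samples as labelled. Of the members, 0 passed in number 2 minus number 1 (0.640% of features passed), where the median was -0.13 and 7 had an unadjusted p under 0.05, all lower (7.16% of features, 2.41% as lower). Atf5 came closest, at -0.50 (SE 0.10, adjusted p = 0.055). In number 3 minus number 1, 0 members and 0 of 18123 features passed (0%), the median was 0.18, and 6 members had an unadjusted p under 0.05, all higher (6.40% of features, 4.34% as higher). The F test over the 3 numbers was passed by 1 member, Atf5 (adjusted p = 0.016), and by 0.833% of features, with 14 members at an unadjusted p under 0.05 against 9.11% of features.

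All 5 samples numbered 3 lay above all 5 numbered 2 in 11 of 37 members, against 1.72% of all features, and below in 0 (2.42% of all). The 11 were the 6 that passed with Psph, Eprs1, Mars1, Asns and Cebpg. All 5 samples numbered 2 lay below those numbered 1 in 6 members (1.71% of all features) and above in 0 (3.03%). Number 3 was wholly above number 1 in 0 members (0.822% of all features), in 9 with 24 h replicates 1 and 3 exchanged (3.55%) and in 12 without the 24 h samples (6.59%). In these 2 settings every sample numbered 3 was on slide 2 and every sample numbered 1 on slide 1, apart from the repeat array of untreated replicate 1, so separation by number and by slide cannot be told apart there. Without the 24 h samples, separation of number 3 over number 2 held in 20 of 37 (6.57% of all), and with 24 h replicates 1 and 3 exchanged in 14 (2.58%).

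With 24 h replicates 1 and 3 exchanged, as in the deposited scores, number 3 minus number 2 was passed by 10 members, all higher (1.04% of features passed as higher). They were the 6 above with Asns (0.59, SE 0.080), Pycr1 (0.39, SE 0.073), Cebpg (0.33, SE 0.072) and Slc6a9 (0.42, SE 0.095), and Atf5 then had an adjusted p of 0.000179 (limma). Slide 2 then held all 5 samples numbered 3 and 2 of the 5 numbered 2. With the slide as a block as well, Nupr1, Ddit3 and Eif4ebp1 lost their calls with the first array, and Ddit3 with the repeat. Asns kept its call with the repeat only, and Pycr1, Cebpg and Slc6a9 with neither. In number 3 minus number 1, 4 members passed, Nupr1 (0.96), Pycr1 (0.43), Asns (0.41) and Eif4ebp1 (0.41), all higher (0.618% of features). That contrast set slide 2 against slide 1, as above, and with the slide as a block as well 0 members passed in it with either array (0.0110% and 0.177% of features passed). In number 2 minus number 1, Atf5 passed as lower (-0.45, 0.188% of features), and the F test was passed by 9 members (3.38%). Without the 24 h samples, under either numbering, number 3 minus number 2 was passed by 8 members (0.651% of features as higher): the 6 above, Asns and Slc6a9. Then Nupr1 also passed in number 3 minus number 1 (1.13, 0.364% of features as higher), Atf5 in number 2 minus number 1 (-0.48, 0.0828% as lower), and 7 members in the F test (1.82%). Leaving out 12 h replicate 3 too, 6 members passed in number 3 minus number 2 (0.497%): Asns and Slc6a9 still did, while Mthfd2 (adjusted p = 0.072) and Ddit3 (0.056) did not. With the slide as a block and no 24 h samples, 0 members passed in number 3 minus number 2 (0.105% and 0.331% of features with the first array and the repeat), where their median was 0.39 and 0.31. Nor did any in number 3 minus number 1 (0% and 0.0110%). Without the 24 h samples, slide 2 held all 4 samples numbered 3 but only 1 of the 4 numbered 2, that of 12 h. These fits could thus hardly separate number from slide, and the medians rest largely on 12 h replicate 2.

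With the slide as a block, 1 member passed in number 3 minus number 2 where the first array of untreated replicate 1 was used (0.127% of features as higher) and 2 where its repeat was used (0.138%), and the member medians were 0.21 and 0.22. Atf5 passed in both. Within slide 2 numbers 3 and 2 had 4 and 2 samples, and the 2 h and 6 h groups held number 3 alone. Numbers 3 and 2 shared only the 12 h group there, with 12 h replicate 3 the array of widest spread between spots. Otherwise they were linked through number 1, in the untreated and 24 h groups, and the number of the 24 h sample is in doubt, as above. So few samples could hardly call any member, and calls are not given. The median within slide 2 was 0.39, against 0.017 over all features. In number 3, 33 of 37 members were higher, against 52.0% of all features. These values rest mostly on the 12 h pair. Leaving out single samples kept Atf5 past the threshold in all 15 cases, while the calls of Mthfd2 and Eif4ebp1 were lost in 13 of them, Ddit3 in 12, Nupr1 in 11 and Slc7a3 in 7. The difference stayed within 0.91 to 1.22 for Nupr1, 0.81 to 1.10 for Slc7a3, 0.64 to 0.80 for Atf5, 0.53 to 0.73 for Eif4ebp1, 0.42 to 0.53 for Mthfd2 and 0.36 to 0.43 for Ddit3. Over these 15 runs 80 to 410 features passed in number 3 minus number 2, and the member counts are to be read against that range. The number of members that passed was 1 without replicate 2 of any group or without 2 h or 6 h replicate 3. It was 2 without untreated replicate 3, 2 h or 6 h replicate 1 or 12 h replicate 3. It was 3 without untreated replicate 1, 4 without 12 h replicate 1, 7 without 24 h replicate 1 and 9 without 24 h replicate 3. With no filter on dim probes it was 1, and with normexp background correction or the first array of untreated replicate 1 alone it was 3.

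**Figure D4:**
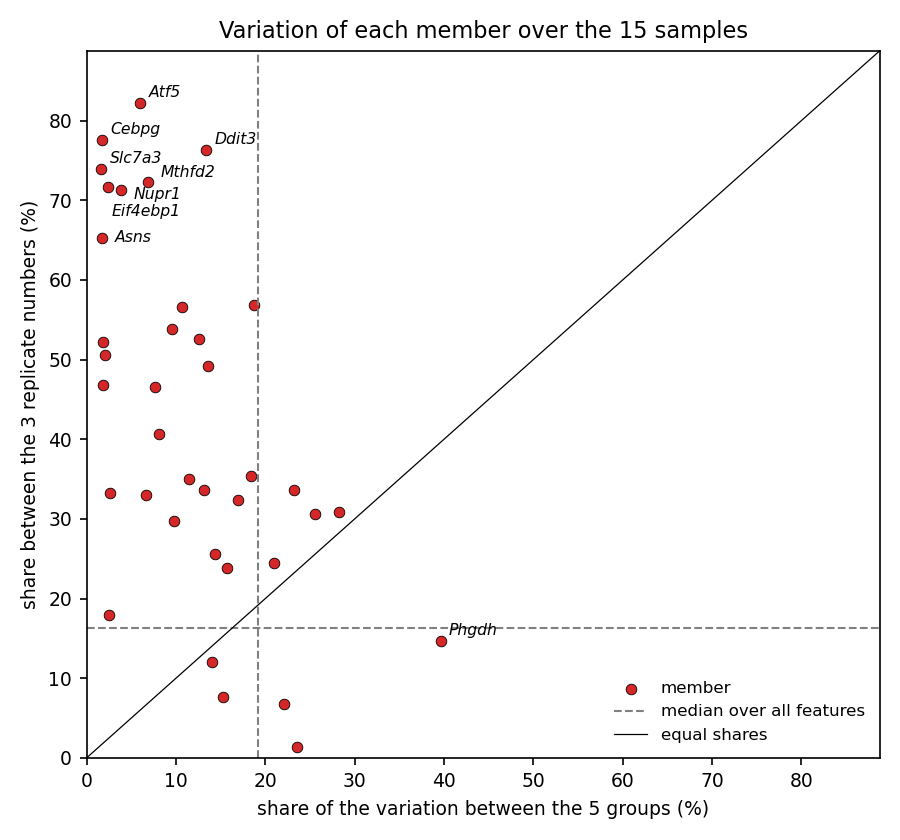
Share of each member's variation over the 15 samples that lay between the 5 groups (horizontal axis) and between the 3 replicate numbers (vertical axis), in percent, with dashed lines at the medians over all 18123 features. Most of the 37 members lie above the line of equal shares, Atf5 highest at 82.2%, and Phgdh lies farthest to the right at 39.6%.

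Replicate number took a median of 35.4% of a member's variation and group 11.4%, against 16.3% and 19.2% over all features. The number's share was above that of the group in 32 of 37 members, against 44.1% of all features. Atf5 had 82.2% between numbers and 6.0% between groups, Cebpg 77.5% and 1.7%, and Ddit3 76.3% and 13.3%. At the other end Slc7a11 had 1.4% between numbers and 23.5% between groups. With the 24 h samples exchanged, the median share of the number was 42.7% for members and 19.7% for all features.

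Other genes of the pathway were taken from lists of 14 genes of the eIF2 machinery and 20 further ATF4-responsive genes. Of the eIF2 kinases, eIF2 and eIF2B subunits and their partners, 0 of 14 passed in number 3 minus number 2, and their median was 0.094. Eif2ak1, the haem-sensing kinase, gave 0.24, and Eif2ak2, the RNA-sensing kinase PKR, -0.26. Of 16 further ATF4-responsive genes tested, 0 passed as higher and 2 as lower, and their median was 0.085. The 2 were Cebpd, a C/EBP factor of acute-phase responses (-0.88, SE 0.074, adjusted p = 0.000205), and Nfe2l2, the antioxidant regulator NRF2 (-0.80, SE 0.11, adjusted p = 0.0053). Cebpd lay between -1.08 and -0.89 in all 5 samples numbered 2 and between -2.01 and -1.80 in all 10 others. Slide moved with the number in this contrast, and results of these lists with the exchange or the slide block are not given.

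**Figure D5:**
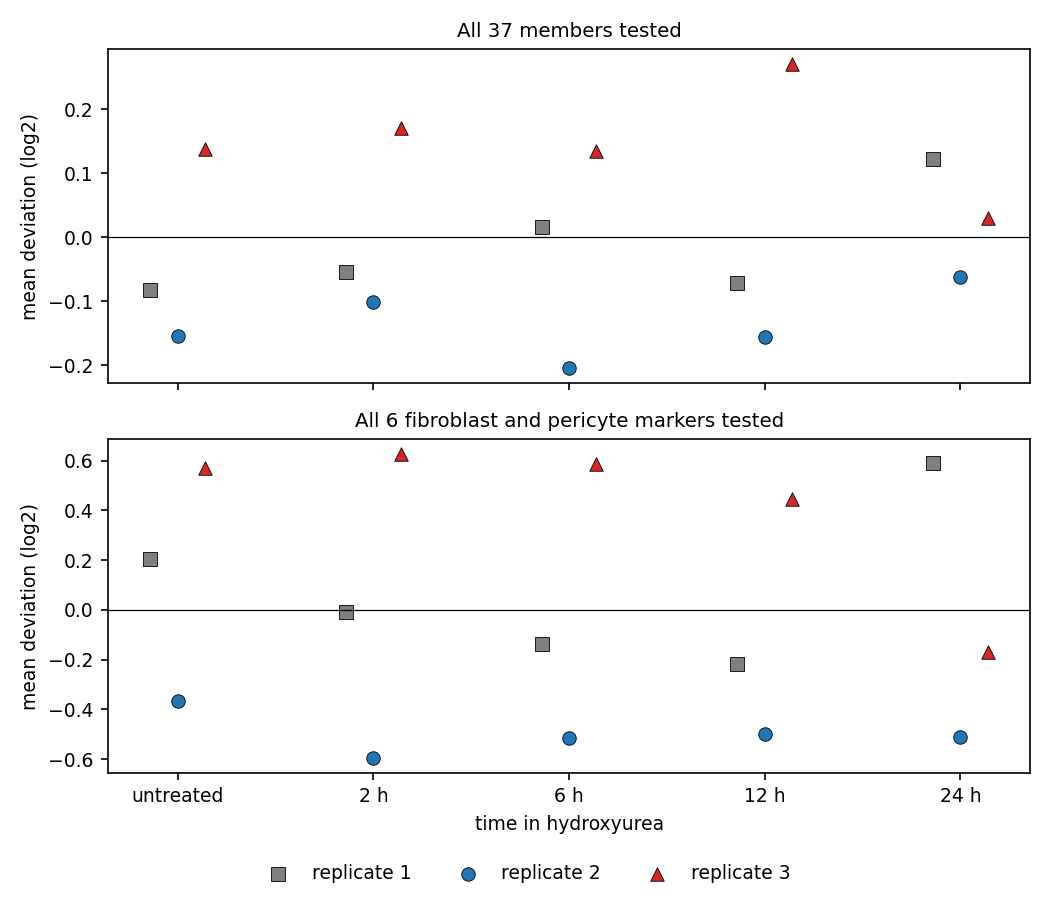
Mean deviation in each sample, in log2 units, of the 37 members (top) and of the 6 fibroblast and pericyte markers tested (bottom), by time and replicate number. In both panels replicate 2 is lowest at each time, replicate 3 is highest up to 12 h, and at 24 h replicate 1 is above replicate 3; of the 6 markers, Col1a1, Col1a2 and Col3a1 are higher in number 3 than in number 2, and Dcn, Pdgfrb and Lum are lower.

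With the samples as labelled, the markers of other cells that passed in number 3 minus number 2 were 3 collagen genes. Here too slide moved with the number, and results of the markers with the exchange or the slide block are not given. Of 6 fibroblast and pericyte markers tested, 3 passed in number 3 minus number 2, all higher: Col3a1 by 2.17 (SE 0.35), Col1a1 by 2.08 (SE 0.30) and Col1a2 by 1.65 (SE 0.28), genes of fibrillar collagen. Dcn, Pdgfrb and Lum gave -0.18, -0.23 and -0.040, and the probe of Rgs5 was well above background on 0 arrays. The mean deviation of these 6 markers was -0.59 to -0.37 in number 2, -0.17 to 0.62 in number 3 and -0.22 to 0.59 in number 1. Col1a1 was at -2.48, -2.66, -2.81, -2.85 and -2.77 in number 2 and at -0.38, -0.14, -0.27, -0.63 and -1.75 in number 3. In number 1 it was at -1.23, -1.40, -1.51, -1.62 and -0.41, with 24 h again the highest. Neuronal markers had a median of 0.21, with 0 of 7 passing and Syt1 (0.46), Map2 (0.29) and Stmn2 (0.21) at an unadjusted p under 0.05. Medians were 0.039 for 8 astrocyte, -0.17 for 4 microglia, -0.0080 for 7 oligodendrocyte-lineage and -0.15 for 3 endothelial markers, with none passing, and the probes of Itgam, Cldn5 and Tek were well above background on 0 arrays. Without the 24 h samples, 1 of 7 neuronal markers also passed as higher and 1 of 7 oligodendrocyte-lineage markers as lower (367 of 18123 features passed). In number 3 minus number 1, 3 of 7 oligodendrocyte-lineage, 2 of 6 fibroblast and pericyte, 1 of 8 astrocyte and 1 of 3 endothelial markers then passed (123 of 18123 features). In cultures measured whole, fewer cells of a type and less RNA per cell cannot be told apart. The part of these cells in the members' difference was not tested.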

How the data were processed

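The deposited files are scanner output of Agilent Feature Extraction 11.5.1.1, per the file headers, and give each spot's intensity after background subtraction, unscaled between arrays. The authors also deposited a score per probe and array, with its scale and centring unstated; by its values it follows each array's standardised log signal, with the columns of 24 h replicates 1 and 3 exchanged, and it was used as an alternative. Each array had 62976 spots, of which 58717 were not controls and held 30367 probes; 18758 probes matched 15715 RefSeq symbols by accession and 11609 stayed unnamed. From log2 of each spot's intensity the 75th percentile over the array's non-control spots was subtracted, and spots of a probe were then averaged after leaving out outlier flags.

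For each gene the brightest probe was used, and features not well above background on all arrays of some group were dropped, which left 18123 features (11085 named genes and 7038 unnamed probes). limma 3.58.1 in R 4.3.3 fitted groups alone (10 residual, 3.56 prior degrees of freedom) and groups with replicate number (8 and 3.51), two-sided, with Benjamini-Hochberg adjustment over all features and a threshold of 0.05. The test was checked on simulated data with independent noise. These held no slide or array differences, so the check does not bear on such differences here. For the background alternative, normexp with an offset of 50 used the median spot signal in place of the planned mean. The number of arrays limits the precision.

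The members, roles and lists were chosen with earlier results of these data known. Values by sample, or the untreated values with the range of the treated ones, are given for Atf4, Ddit3, Asns and Trib3, for the 6 members with the smallest p over replicate numbers and over groups, and for the 3 with the smallest p in the mean of the times, with the other members by their differences. Values given beyond this rule (single arrays of untreated replicate 1, Mars1, Col1a1, Cebpd and second probes) were chosen after they were seen. Normalization, probe filter, probe choice, slide, array weights and each sample left out were varied.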

Additional observations from a re-analysis of the deposited data

Results flagged for a closer look

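Within the 5 samples of 1 replicate number, 4 of 51 sets of values of the named members held a sample farther from the rest than Dixon's critical value of 0.71 for 5 samples, and chance alone sets off about 1 in 20 such sets. Slc7a3 was at 3.00 in 12 h replicate 3, against 2.38 in the next of the samples numbered 3. Shmt2 was at 1.19 in 24 h replicate 2, against 0.76 in the next of those numbered 2. Phgdh was at 5.07 in untreated replicate 1, against 6.10 in the next of those numbered 1, and Wars1 at 2.34 in the same sample, against 3.24. In untreated replicate 1 both values average 2 arrays that differed, at 4.03 and 6.12 for Phgdh and 1.44 and 3.25 for Wars1.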

How the results depend on the processing

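Over time no member passed under any alternative run. In number 3 minus number 2 the member median was above 0 in every alternative run. Among the 6 members that passed, Atf5 lost its call without the 24 h samples with the slide as a block, where number and slide were hardly separable. The fit within slide 2 is set aside here, since calls are not given for it, and Atf5 differed by 0.76 in it. Counts below are of features, then members, at an adjusted p under 0.05 (limma). The cause of the changes was not tested. Where a count of members stands alone, its feature count is not shown, so it is not read as particular to the members. With normexp, number 3 minus 2 had 94 and 3, and the F test over numbers 84 and 3. With the deposited scores, 2 minus 1 had 176 and 1, 3 minus 1 had 177 and 4, 3 minus 2 had 467, and the F test 486 and 7. With no filter, 3 minus 2 had 125 and 1; with probes well above background on all 16 arrays, 1 member passed in 2 minus 1 and 2 in the F test. With the first array of untreated replicate 1 alone 3 members passed in 3 minus 2, and with the repeat alone 1 in 2 minus 1. With the slide as a block and the first array, the mean of the times had 1 feature, 2 minus 1 had 1 member and 3 minus 2 had 125 and 1; with the repeat, 2 minus 1 had 1 member and 3 minus 2 had 130 and 2. Within slide 1 the 12 h and 24 h groups, and within slide 2 the 2 h and 6 h groups, had a single sample, so no counts are given. With array weights, 2 minus 1 had 363 and 2, 3 minus 2 had 798 and 11, and the F test 614 and 11. With the 24 h exchange, 2 minus 1 had 217 and 1, 3 minus 1 had 235 and 4, 3 minus 2 had 586 and 10, and the F test 612 and 9. Alternatives without the 24 h samples, with or without the slide block, or joining the exchange to the slide or replicate block, were chosen after seeing the data. Exchange and slide block with the first array gave 2 features in 3 minus 1, 3 members in 3 minus 2 and 295 and 4 in the F test. With the repeat they gave 188 and 1 in 2 minus 1, 32 in 3 minus 1, 310 in 3 minus 2 and 329 and 5 in the F test. Without the 24 h samples but with the slide block, the first array gave 43 features in 2 minus 1, 19 and 0 in 3 minus 2 and 69 and 0 in the F test, and the repeat 2 features in 3 minus 1 and 60 and 0 in 3 minus 2. Without the 24 h samples, 2 minus 1 had 129 and 1, 3 minus 1 had 123 and 1, 3 minus 2 had 367 and 8, and the F test 330 and 7. Without these and 12 h replicate 3, 2 minus 1 had 202 and 2, 3 minus 1 had 89 and 1, 3 minus 2 had 335 and 6, and the F test 366 and 5, and in 3 minus 2 Slc7a5 gave 0.30 and Ppp1r15a 0.085. With no group term, 2 minus 1 had 231 and 1, 3 minus 2 had 435, and the F test 309 and 7.

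Leaving out 1 sample at a time gave 54 to 173 features and 0 to 1 members in 2 minus 1, 0 to 3 features in 3 minus 1, 80 to 410 and 1 to 9 in 3 minus 2, and 47 to 368 and 0 to 7 in the F test. It turned the sign of Slc7a5 (-0.038 to 0.18), Phgdh (-0.017 to 0.18), Slc7a11 (-0.068 to 0.063), Cth (-0.17 to 0.025) and Ppp1r15a (-0.11 to 0.074) in 3 minus 2. In the mean of the times it turned Nupr1 (-0.11 to 0.53), Slc7a5 (-0.14 to 0.37), Ddit4 (-0.0010 to 0.24), Slc7a3 (-0.17 to 0.22), Wars1 (-0.13 to 0.49), Trib3 (-0.29 to 0.19), Mthfd2 (-0.058 to 0.082), Ddit3 (-0.072 to 0.073), Atf5 (-0.12 to 0.24), Asns (-0.22 to 0.14), Chac1 (-0.00048 to 0.24), Eif4ebp1 (-0.19 to 0.17), Shmt2 (-0.27 to 0.050) and Ppp1r15a (-0.084 to 0.13).

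Values under the deposited scores are in score units. In 3 minus 2, members turned sign under quantile normalization (Ddit4 -0.0060 and Phgdh -0.0072), normexp background correction (Cth 0.0054), the deposited scores (Phgdh -0.0040, Slc7a11 0.00077 and Cth 0.0060), the mean over all probes of a gene (Slc7a11 0.24 and Wars1 -0.064), the slide block with the first array (Slc7a11 0.016) and the slide block with the repeat (Slc7a11 0.0043). They also did so within slide 2 alone (Cebpb 0.084, Slc7a5 -0.071, Ddit4 -0.22, Phgdh -0.080, Slc7a11 0.17, Cth 0.13, Gpt2 -0.45 and Ppp1r15a 0.025), with array weights (Ppp1r15a 0.040), 24 h replicates 1 and 3 exchanged (Slc7a11 0.012), the exchange with the slide block and the first array (Cebpb 0.010, Slc7a5 -0.023, Ddit4 -0.073, Sars1 -0.030, Slc7a11 0.15 and Gpt2 -0.29), the exchange with the slide block and the repeat (Ddit4 -0.064, Slc7a11 0.052 and Gpt2 -0.087), leaving out the 24 h samples (Cth 0.027 and Ppp1r15a 0.091), and doing so with the slide block and the first array (Ddit4 -0.17, Slc7a11 0.089, Cth 0.10, Gpt2 -0.30 and Ppp1r15a 0.16) or the repeat (Ddit4 -0.13, Cth 0.083 and Ppp1r15a 0.18). In the mean of the times, members turned sign under normexp background correction (Ppp1r15a -0.017), the deposited scores (Eif4ebp1 0.0050), the repeat array of untreated replicate 1 only (Nupr1 -0.054, Slc7a5 -0.022 and Wars1 -0.047) and the slide block with the first array (Slc7a3 -0.0029). They also did so under the slide block with the repeat (Slc7a5 -0.0071, Wars1 -0.031, Trib3 0.0067, Ddit3 0.018 and Eif4ebp1 0.028), slide 1 alone (Ddit3 0.017, Asns 0.038 and Eif4ebp1 0.034), slide 2 alone (Trib3 0.12, Ddit3 0.048 and Eif4ebp1 0.022) and array weights (Shmt2 0.0096 and Ppp1r15a -0.013).

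As a replicate block, the numbers left 0 features and 0 members in every comparison over time, and with the 24 h exchange 1 feature in the mean of the times. Not every pair of samples with 1 number correlated above 0.1 in its deviations, the bar set for treating numbers as pairs: the lowest correlation was -0.42 as labelled (24 h replicate 3 with untreated replicate 3) and 0.0060 with the exchange. As labelled 11 of 15 samples correlated best with their own number, and with the exchange 15 of 15 did. With the exchange, samples numbered 1 were all on slide 1 and those numbered 3 all on slide 2, apart from the repeat array of untreated replicate 1. For these, shared number and shared slide cannot be told apart.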
